A study of Mus musculus with 8 samples.

Results

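The genes of the BCL2 family decide whether the mitochondria of a stressed cell are opened for death, and 10 of them were followed here in bone marrow-derived dendritic cells (BMDCs) exposed to a microtubule poison. They were taken by gene symbol from an expression table of 23356 genes and comprised 4 pro-survival genes (Bcl2, Bcl2l1, Mcl1 and Bcl2a1b), 4 BH3-only genes (Bcl2l11, Bid, Bbc3 and Pmaip1) and 2 effector genes (Bax and Bak1). Of these genes, 10 of 10 were listed and passed a filter of 1 FPKM (fragments per kilobase of transcript, scaled to the mapped fragments of the sample) or more in any group, which left 11397 genes in all. The study asked which transcriptional responses of dendritic cells (DCs) to microtubule destabilization need GEF-H1, a guanine nucleotide exchange factor for RhoA that is held on microtubules and is encoded by Arhgef2. RNA was sequenced from 8 libraries in 4 groups of 2: WT and GEF-H1-/- (Arhgef2-KO, or knockout) DCs on a C57BL/6 background (C57BL/6N in the study's methods), each either untreated or given ansamitocin-P3 (AP3), a maytansine-type microtubule-destabilizing agent, at 100 nM for 5 h. The cells of all groups were grown from the marrow of WT or Arhgef2 knockout mice with GM-CSF and IL-4. The labels gave neither the age nor the number of mice, and did not say whether the 2 libraries of a group came from separate cultures. For all its experiments together, the study's methods state an age range in weeks and sex-matched mice of both sexes.

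The pro-survival proteins sit on the outer mitochondrial membrane and hold BAX and BAK inactive. BH3-only proteins, many of them made or modified upon stress, occupy the groove of the pro-survival proteins or engage BAX and BAK directly, after which BAX and BAK form pores that release cytochrome c and start the caspase cascade. In dendritic cells, survival after activation is known to depend on pro-survival members whose transcription follows NF-kappaB, and MCL1 and NOXA (the product of Pmaip1) are proteins of short life that are degraded as a pair.

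Each group had 1 pooled FPKM per gene, which the authors' Cuffdiff run computed over both libraries, together with the bounds of a 95% interval. No library had a value of its own, so no spread between replicates and no p-value can be given. A difference was called when the log2 ratio of FPKM + 1 lay over 1 or under -1, and a further reading asked whether the Cuffdiff intervals of the groups were apart. The span given beside a log2 ratio is the lowest and the highest ratio that the bounds of both intervals allow, which is wider than a 95% interval of the ratio. The intervals of the members had a median width of 43.0% of the FPKM (36.3% to 56.4%), and this sets the size of difference that could be seen. The methods state a target for the sequencing depth, but the table does not hold the depth that was reached. As the check of the genotype, Arhgef2 had 42.3 FPKM in untreated WT and 45.9 in AP3-treated WT, against 4.59 in untreated GEF-H1-/- and 4.16 in AP3-treated GEF-H1-/- DCs. Dendritic cell markers were all listed (10 of 10, among them Itgax and Cd74), although Flt3 and Cd209a stood at 0.808 to 3.30 FPKM. In such bulk RNA, fewer cells of a type and less RNA per cell cannot be told apart.

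In untreated WT DCs the members spanned from 3.46 FPKM for Bcl2 to 219 FPKM for Bcl2a1b. Bcl2a1b, Mcl1, Bax and Bak1 formed the upper tier, at 219, 188, 177 and 139 FPKM, and each overlapped its neighbour in this order. Pmaip1 followed at 49.6 FPKM with an interval apart from Bak1 above it and from Bcl2l1 below it. Bcl2l1, Bcl2l11, Bid and Bbc3 lay between 28.6 and 15.5 FPKM, again with neighbours that overlapped, and Bcl2 came last with an interval apart from Bbc3. In AP3-treated WT DCs Pmaip1 moved up to 171 FPKM, between Bax and Bak1, and its interval then overlapped both. Below this tier, Bak1 was apart from Bcl2l1 and Bcl2l11 from Bbc3 there. In GEF-H1-/- DCs, Bcl2a1b, Bax, Mcl1 and Bak1 led in this order with and without drug, each overlapping its neighbour. Pmaip1 kept the fifth place in both, and its interval in treated cells was apart from Bak1 above and from Bcl2l1 below. The lowest place belonged to Bcl2 in each of the 4 groups, with an interval apart from the next gene. The transcript of the founding family member was thus the scarcest of the 10 in these cells.

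**Figure D1:**
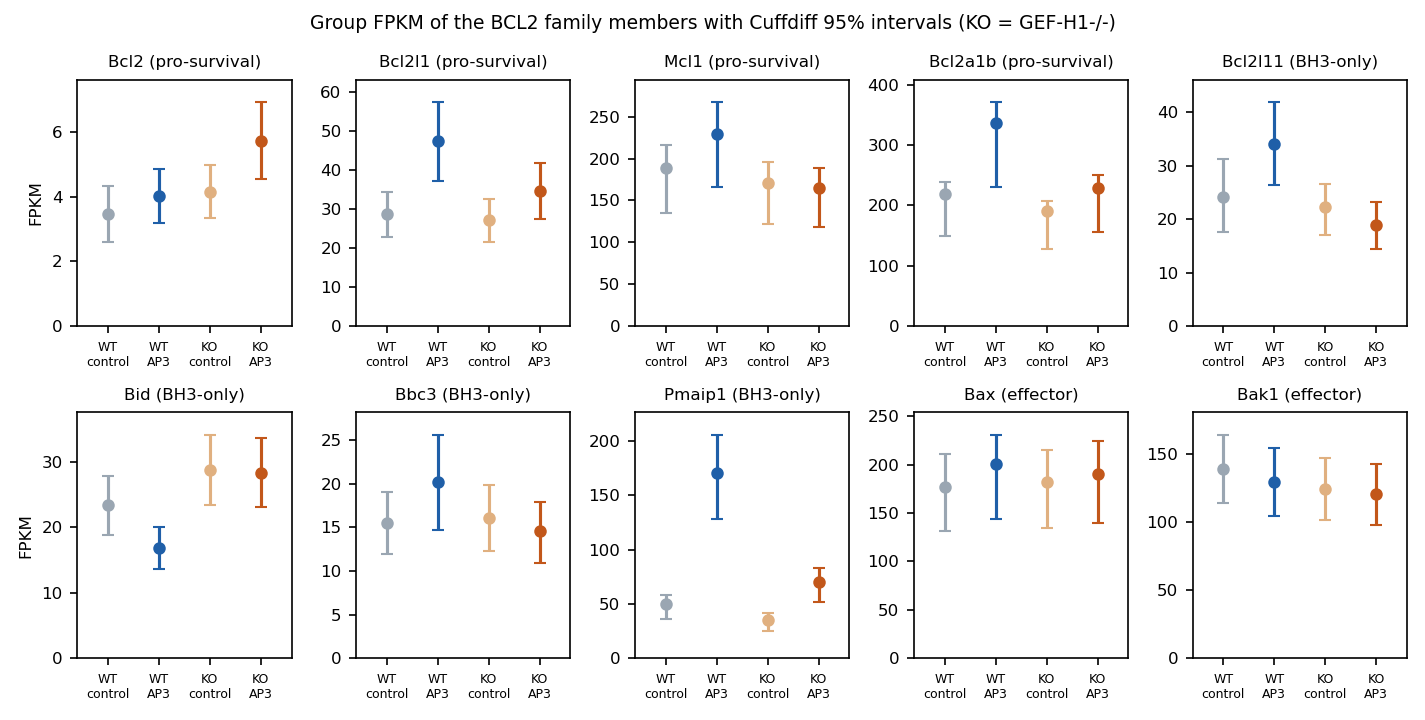
Group FPKM (y axis, linear, from 0) of each of the 10 members in untreated (control) and ansamitocin-P3 treated (AP3) DCs, WT or GEF-H1-/- (KO); points are the pooled FPKM of 2 libraries and bars are the Cuffdiff 95% intervals. Pmaip1 in AP3-treated WT DCs, at 171 FPKM, stands clear of its other 3 groups, while Bax and Bak1 overlap in all 4 groups.

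Among the pro-survival genes, Bcl2l1 and Bcl2a1b had the largest drug ratios in WT DCs, and none of the 4 was called. Bcl2l1 (chr2:152780668-152831682, mm10) encodes BCL-XL. Its level was 28.6 FPKM (interval 22.8 to 34.4) in untreated WT and 47.4 FPKM (37.1 to 57.3) in AP3-treated WT DCs, and 27.1 FPKM (21.5 to 32.5) in untreated and 34.5 FPKM (27.3 to 41.7) in AP3-treated GEF-H1-/- DCs. The WT intervals were apart and the GEF-H1-/- intervals overlapped. The ratio of treated to untreated cells was 1.66 in WT (log2 ratio 0.71, span 0.11 to 1.29) and 1.27 in the knockout (log2 ratio 0.34, span -0.24 to 0.92).

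Bcl2a1b (chr9:89199273-89207838, mm10) encodes a form of A1, a pro-survival protein of blood cells whose gene is an NF-kappaB target. It had the highest FPKM of the 10 members in every group, with 219 FPKM (149 to 238) in untreated WT, 336 (231 to 371) in AP3-treated WT, 190.0 (128 to 207) in untreated GEF-H1-/- and 228 (155 to 249.5) in AP3-treated GEF-H1-/- DCs. The drug ratio was 1.53 in WT (log2 ratio 0.61, span -0.05 to 1.31) and 1.20 in the knockout (log2 ratio 0.26, span -0.41 to 0.95), and in both genotypes the intervals of untreated and treated cells overlapped.

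The mouse carries copies of this gene, Bcl2a1a, Bcl2a1c and Bcl2a1d, that differ from it at few positions, so the FPKM of each depends on how reads common to them were divided. The coding sequences of Bcl2a1b and Bcl2a1d were 98.8% identical (6 of 516 bases differed), those of Bcl2a1b and Bcl2a1a 97.9% (11 of 516), and those of Bcl2a1a and Bcl2a1d 98.6% (7 of 516). The first 90 coding bases of the 3 copies with the same coding length are shown because no other stretch of that length holds more of these differences. Capitals mark the 6 positions at which the 3 differ, and the sequences are from the GRCm38 genome at chr9:89199360-89199449 on the plus strand for Bcl2a1b, chr9:88957051-88957140 on the plus strand for Bcl2a1a and chr9:88731630-88731719 on the minus strand for Bcl2a1d.
Bcl2a1b: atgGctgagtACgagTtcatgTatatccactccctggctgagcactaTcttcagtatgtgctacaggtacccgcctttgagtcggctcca
Bcl2a1a: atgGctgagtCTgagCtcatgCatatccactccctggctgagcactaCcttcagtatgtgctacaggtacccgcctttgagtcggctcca
Bcl2a1d: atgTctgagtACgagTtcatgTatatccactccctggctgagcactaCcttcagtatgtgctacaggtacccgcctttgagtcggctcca
Of all stretches of 35 bases (the length of 1 read) in the annotated Bcl2a1b transcript, 69% also occurred in a copy and 86.1% in some other gene. The same-strand gene model Gm29094 shares 401 exon bases with Bcl2a1b and contributes to the latter share. The level of Bcl2a1b is therefore uncertain.

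The rows of the copies are not separate readings, since reads can be common to them. Of their stretches of 35 bases, 77.2% for Bcl2a1a, 87.1% for Bcl2a1d and 24.4% for Bcl2a1c also occurred in another copy. Bcl2a1a had 73.4, 97.5, 64.7 and 74.6 FPKM in untreated WT, AP3-treated WT, untreated GEF-H1-/- and AP3-treated GEF-H1-/- DCs, and Bcl2a1d had 77.7, 113, 59.9 and 75.0 FPKM in the same order. Bcl2a1c, the most distant copy by sequence (95.8% identical to Bcl2a1b over 383 aligned bases), stayed at 2.90 to 5.94 FPKM. Their drug log2 ratios in WT were 0.40, 0.54 and 0.37, and intervals of untreated and AP3-treated WT cells overlapped for all 3.

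Mcl1 (chr3:95658721-95663178, mm10), whose protein is the labile pro-survival partner of NOXA, was at 188 FPKM in untreated WT, 229 in AP3-treated WT, 170.5 in untreated GEF-H1-/- and 165 in AP3-treated GEF-H1-/- DCs. Its drug log2 ratio was 0.28 (span -0.38 to 0.98) in WT and -0.05 (span -0.73 to 0.63) in the knockout, and all 4 intervals overlapped. Bcl2 (chr1:106538179-106714290, mm10), the first pro-survival gene to be described in the family, had 3.46 FPKM in untreated WT, 4.03 in AP3-treated WT, 4.16 in untreated GEF-H1-/- and 5.73 in AP3-treated GEF-H1-/- DCs. Bcl2 was the only one of the 4 pro-survival genes with a larger log2 ratio in GEF-H1-/- (0.38) than in WT DCs (0.18), and its intervals overlapped in every comparison of 2 groups made here.

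Pmaip1, a BH3-only gene, was the member with the largest log2 ratio in size in each of the 5 comparisons. Pmaip1 (chr18:66458604-66465558, mm10) encodes NOXA, which binds MCL1 and A1. It had 49.6 FPKM (36.3 to 58.4) in untreated WT, 171 (128 to 206) in AP3-treated WT, 34.9 (25.6 to 41.3) in untreated GEF-H1-/- and 70.1 (51.7 to 83.0) in AP3-treated GEF-H1-/- DCs. AP3-treated WT DCs thus had the highest level and the intervals of untreated and treated cells were apart in both genotypes. The drug ratio was 3.44 in WT, with a log2 ratio of 1.76 (span 1.12 to 2.47) that was called and ranked 117 from the highest of 11397 genes. In GEF-H1-/- DCs the ratio was 2.01, with a log2 ratio of 0.99 (span 0.32 to 1.66) that ended just inside the limit of 1 (and past it with a pseudocount of 0.1 FPKM) and ranked 96 from the highest. The rank of Pmaip1 among all genes was thus high in both genotypes, while the ratio itself was lower in GEF-H1-/- DCs. The difference of the 2 drug log2 ratios was -0.78, and its span of -2.16 to 0.54 includes 0.

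Bcl2l11 (chr2:128126038-128162547, mm10) encodes BIM, which binds all pro-survival proteins of the family. It had 24.2 FPKM (17.6 to 31.2) in untreated WT and 34.1 (26.3 to 41.8) in AP3-treated WT DCs, against 22.3 (17.1 to 26.6) in untreated and 18.9 (14.3 to 23.1) in AP3-treated GEF-H1-/- DCs. The drug log2 ratio was 0.48 (span -0.24 to 1.20) in WT and -0.23 (span -0.85 to 0.41) in the knockout, so the signs were opposite and each span includes 0. AP3-treated GEF-H1-/- and AP3-treated WT DCs had intervals apart, with a level 1.81-fold lower in GEF-H1-/- DCs (log2 ratio -0.82, span -1.48 to -0.18).

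Bid (chr6:120893119-120916820, mm10) encodes a protein that is cut by caspase 8 and links death receptors to mitochondria. Among the BH3-only members, Bid alone had a negative drug log2 ratio in WT DCs. It had 23.4 FPKM (18.9 to 27.9) in untreated WT, 16.9 (13.6 to 20.1) in AP3-treated WT, 28.7 (23.4 to 34.1) in untreated GEF-H1-/- and 28.3 (23.0 to 33.7) in AP3-treated GEF-H1-/- DCs. Its drug log2 ratio was -0.45 (span -0.98 to 0.08) in WT and -0.02 (span -0.55 to 0.51) in the knockout. In treated cells the intervals of the genotypes were apart, with a level 1.68-fold higher in GEF-H1-/- DCs (log2 ratio 0.72, span 0.19 to 1.24). Bbc3 (chr7:16309583-16318334, mm10), which encodes the p53 target PUMA, had 15.5, 20.2, 16.1 and 14.6 FPKM in untreated WT, AP3-treated WT, untreated GEF-H1-/- and AP3-treated GEF-H1-/- DCs, and overlapped in all of them. Its drug log2 ratios were 0.36 in WT and -0.13 in the knockout.

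For the effector genes, which form the pore, no comparison gave a log2 ratio outside -0.16 to 0.18. Bax (chr7:45461695-45466898, mm10) had 177 FPKM in untreated WT, 201 in AP3-treated WT, 182 in untreated GEF-H1-/- and 191 in AP3-treated GEF-H1-/- DCs. Bak1 (chr17:27018035-27036378, mm10) had 139, 129, 124 and 120.2 FPKM in the same order. The drug log2 ratios were 0.18 and 0.07 for Bax and -0.10 and -0.05 for Bak1, in WT and GEF-H1-/- DCs in turn. Their spans in WT (-0.55 to 0.81 for Bax and -0.64 to 0.44 for Bak1) stayed within the limit of 1 in either direction, which none of the other spans in WT did except those of Bcl2, Mcl1 and Bid. Bak1 shares 614 exon bases with Ggnbp1 on the opposite strand Bax shares 192 with the same-strand model Gm45808, and Bcl2 shares 558 with D630008O14Rik on the opposite strand. Whether the counting behind the FPKM used strand is not given in the sources used here.

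Summed by role, the BH3-only transcripts had the largest drug ratio. Their summed level was 113 FPKM in untreated WT and 242 in AP3-treated WT DCs (ratio 2.15), and 102 in untreated and 132 in AP3-treated GEF-H1-/- DCs (ratio 1.29). The pro-survival sum was 440.0 and 617 FPKM in WT (ratio 1.40) and 392 and 434 in the knockout (ratio 1.11), and the effector sum was 316 and 331 FPKM in WT and 306 and 311 in the knockout. The BH3-only sum turned on 1 gene, since Pmaip1 made up 44.0% of it in untreated WT, 70.6% in AP3-treated WT, 34.2% in untreated GEF-H1-/- and 53.1% in AP3-treated GEF-H1-/- DCs. Bcl2a1b and Mcl1 together carried most of the pro-survival sum, with 49.9% and 42.8% in untreated WT DCs, while Bcl2 gave 0.786%. These are sums of transcript levels, and protein was not part of the data. BH3-only genes outside the members, such as Bmf, were not added to the BH3-only sum.

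The counts of members past each limit are given beside the share of all genes. In WT DCs 1 of 10 members was called (Pmaip1), where 4.94% of the 11397 genes were called, and 3 of 10 passed 1.5-fold (Pmaip1, Bcl2l1 and Bcl2a1b, all higher), where 17.7% of all genes did. Intervals were apart and higher with drug for 2 of 10 members (Pmaip1 and Bcl2l1) against 9.19% of all genes, and apart and lower for 0 of 10 against 7.58%. Of the 10 members, 8 had a positive log2 ratio, against 50.1% of all genes, and the median was 0.32, against 0.00 for all genes. In GEF-H1-/- DCs 0 of 10 members were called against 1.08% of all genes, and Pmaip1 alone passed 1.5-fold, against 3.98%. Pmaip1 was also the only member with intervals apart there, against 2.75% of all genes that were higher and 0.956% that were lower. Positive and negative log2 ratios were even in GEF-H1-/- DCs (5 and 5), with a median of 0.02. With 10 genes, these counts are a description of the members and not a test.

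**Figure D2:**
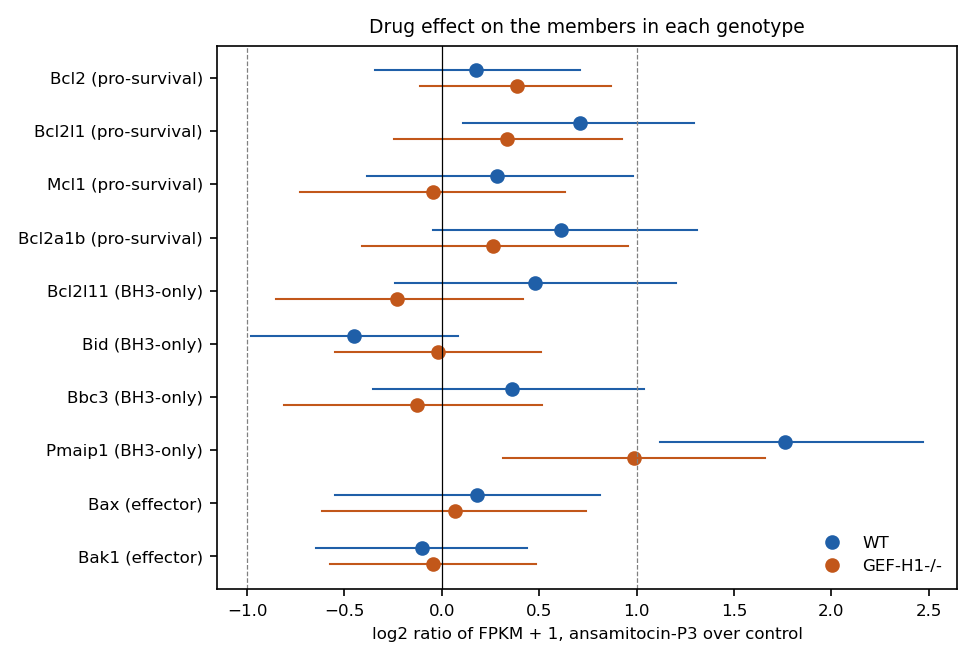
Log2 ratio of FPKM + 1 (x axis), ansamitocin-P3 over untreated, for the 10 members in WT (blue) and GEF-H1-/- (orange) DCs; points are the ratios of the pooled FPKM, lines are the spans that the Cuffdiff 95% bounds allow and dashed lines mark -1 and 1. Pmaip1 lies farthest to the right in both genotypes, at 1.76 and 0.99, and the span of its WT ratio is the only one wholly past 1.

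Between the genotypes, untreated cells showed little and treated cells more. Without drug, 0 of 10 members were called against 1.88% of all genes, 0 of 10 passed 1.5-fold against 5.26%, and 0 of 10 had intervals apart against 2.86% of genes higher and 1.88% lower in GEF-H1-/- DCs. The largest of these genotype log2 ratios was -0.49 for Pmaip1 (span -1.16 to 0.18), followed by 0.29 for Bid. In treated cells 1 of 10 was called (Pmaip1, lower in GEF-H1-/- DCs by a ratio of 2.43, log2 ratio -1.27, span -1.97 to -0.62) against 4.06% of all genes. There 3 of 10 passed 1.5-fold against 14.8%, namely Pmaip1, Bcl2l11 and Bid. The same 3 genes had intervals apart, Bid higher (7.02% of all genes) and Bcl2l11 and Pmaip1 lower (6.73% of all genes). Of the 10 members, 8 were lower in AP3-treated GEF-H1-/- than in AP3-treated WT DCs, against 52.9% of all genes, with a median log2 ratio of -0.44 against -0.03. The 2 that were higher were Bid (0.72) and Bcl2 (0.42). This comparison and the drug comparison in WT share the AP3-treated WT group, so they are not separate readings of it.

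Markers of other cell types also differed between the genotypes. Neutrophil markers (9 of 10 listed) summed to 32452 FPKM in untreated WT and 38322 in AP3-treated WT, against 21898.5 in untreated and 22304 in AP3-treated GEF-H1-/- DCs. S100a8 and S100a9 made up most of this sum (the S100a8 FPKM lay outside its own Cuffdiff interval in each of the 4 groups), and in untreated cells 4 of the 9 were higher in GEF-H1-/- DCs (log2 ratios of 0.92 to 1.37, for Elane, Mpo, Csf3r and Retnlg) and 5 lower (-3.57 to -0.09). Macrophage markers (7 of 8 listed) summed to 226 and 176 FPKM in WT and 338 and 314 in the knockout, and basophil and mast cell markers (7 of 7) to 198 and 203 in WT and 384 and 368 in the knockout. In untreated cells 6 of the 7 macrophage markers were higher in GEF-H1-/- DCs and Mertk was lower (log2 ratio -0.22). Dendritic cell markers summed to 5729 and 7450 FPKM in WT and 4858 and 5356 in the knockout, a sum carried by Cd74 and the H2 genes, while 4 of the 10 (Itgax, Csf2ra, Flt3 and Cd209a) were higher in untreated GEF-H1-/- DCs (0.23 to 0.61). B cell markers (5 of 5) summed to 6.56 to 16.6 FPKM and T and NK cell markers (6 of 6) to 10.7 to 17.4 over the groups, and all 4 listed erythroid markers were under 1 FPKM in each group, while no listed marker was at 0. Their part in the genotype values of the members was not tested.

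The drug effect was lower in GEF-H1-/- than in WT DCs for 7 of 10 members, against 51.6% of all genes, and the median difference was -0.34. No member was called on this difference (1.9% of all genes were), and 2 of 10 passed 1.5-fold (Pmaip1 at -0.78 and Bcl2l11 at -0.71) against 8.2% of all genes. Bid was the member with the largest difference in the other direction (0.43). The spans of all these differences include 0. Each span combines the outermost bounds of 4 intervals, so it is too wide to decide whether a drug effect depends on genotype. Whether the difference seen for Pmaip1 exceeds the spread between libraries was not tested. The sign of the drug effect was opposite in WT and GEF-H1-/- DCs for Mcl1, Bcl2l11 and Bbc3, each positive in WT, and such opposite signs were found for 23.9% of all genes.

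**Figure D3:**
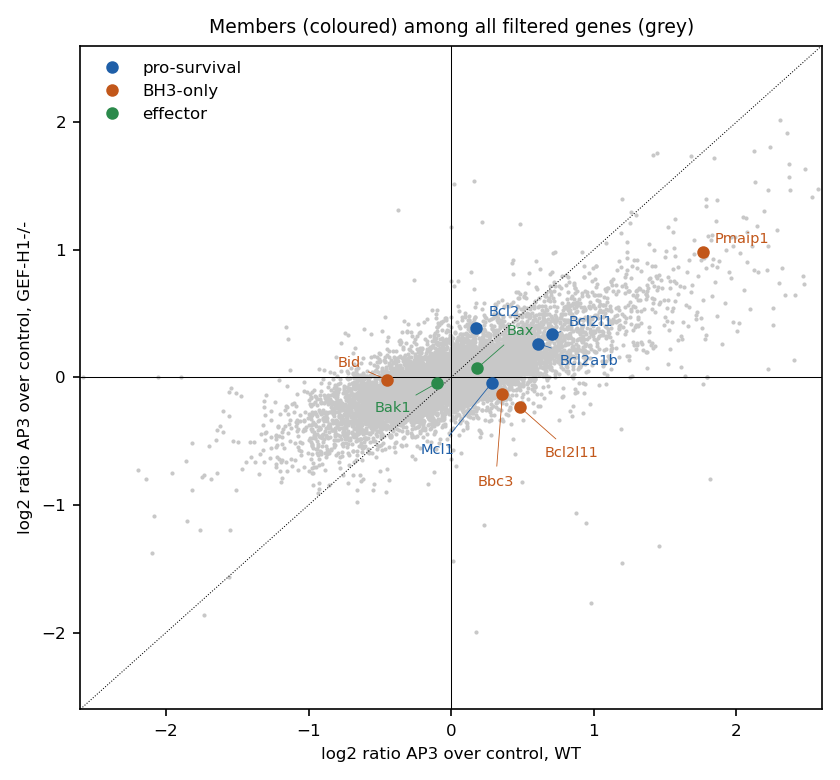
Log2 ratio of FPKM + 1, ansamitocin-P3 over untreated, in WT (x axis) and GEF-H1-/- DCs (y axis) for the 10 members (coloured by role) and for all 11397 filtered genes (grey), of which 77 lie outside the axes; the dotted line marks equal ratios. Pmaip1 lies far to the right and below the dotted line, and 7 of the 10 members lie below that line.

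Flrt3 and Csrnp1 were among the 3 genes outside the family whose 4 group values were most like those of Pmaip1. Likeness was the Euclidean distance between values of log2(FPKM + 1) centred on each gene's mean over the 4 groups, searched among the 8894 genes that reached 5 FPKM in 1 group or more, and the distance was 0.16 for each of them. Csrnp1, a nuclear protein gene named for its cysteine- and serine-rich sequence, had 17.2, 61.9, 13.7 and 27.5 FPKM in untreated WT, AP3-treated WT, untreated GEF-H1-/- and AP3-treated GEF-H1-/- DCs. Flrt3, a membrane protein with leucine-rich repeats, had 8.01, 33.3, 6.25 and 13.5 FPKM in that order. Both genes were chosen by this likeness, so their values describe the pattern and do not test it.

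The other lists of cell death genes are given by their drug calls and medians, beside calls over all genes of 4.94% for WT and 1.08% for GEF-H1-/- DCs and all-gene medians of 0.00 and -0.01. Of 16 other BCL2 family genes 12 passed the filter, and 0 of them were called in either genotype (medians 0.26 and 0.24). Bcl2l2, which encodes the pro-survival protein BCL-W, had intervals apart and higher with drug in WT (10.2 to 20.1 FPKM, log2 ratio 0.91) and overlapping intervals in the knockout (9.79 to 12.2 FPKM, 0.29). Bmf, a BH3-only gene whose product is held on the actin cytoskeleton, had intervals apart and lower with drug in both genotypes (26.5 to 17.8 FPKM in WT and 22.3 to 11.6 in GEF-H1-/- DCs). Bcl2l12 had a log2 ratio of -0.60 and Bik, at 0.407 to 1.04 FPKM, one of 0.54 in WT DCs, both with overlapping intervals. Hrk was listed at 0 in each group, and Bok, Bcl2l10 and Bcl2l15 stayed under 1 FPKM.

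Of 12 genes of the apoptosome and the caspases, 11 had negative log2 ratios in WT DCs (median -0.21, and -0.10 in GEF-H1-/- DCs) and 0 were called. Over all genes, 50.1% had positive log2 ratios in WT DCs. Endog, a mitochondrial nuclease, had a log2 ratio of -0.78 in WT with intervals that overlapped, and Htra2, a mitochondrial protease that counters IAPs, one of -0.30. Apaf1, the scaffold of the apoptosome, was the only positive one (0.36, 16.8 to 21.8 FPKM). Among 8 inhibitors of apoptosis 0 were called (medians -0.05 and 0.07). In WT DCs 1 of them had intervals apart and higher with drug, against 9.19% of all genes. This was Naip2 (17.7 to 28.6 FPKM, log2 ratio 0.66), a sensor of bacterial protein in the inflammasome. Birc3 and Birc2, which encode the IAPs that act in TNF receptor signalling, had log2 ratios of 0.43 and 0.34 in WT DCs, and Naip6 one of -0.43.

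Of 12 genes of the death receptor pathway 0 were called in either genotype (medians 0.20 in WT and -0.06 in GEF-H1-/- DCs). Cflar, whose product c-FLIP blocks caspase 8 at the receptor, had intervals apart and higher with drug in both genotypes (25.4 to 46.4 FPKM in WT, log2 ratio 0.84, and 23.9 to 37.6 in GEF-H1-/- DCs, 0.64). Tnfsf10, the gene of the death ligand TRAIL, was low, at 1.72 and 0.802 FPKM in untreated and AP3-treated WT DCs with intervals apart. Ripk3, a kinase of necroptosis, had a log2 ratio of 0.58 in WT DCs, and Fadd, the adaptor of death receptors, one of -0.49, each with overlapping intervals.

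Of 16 genes known to regulate the family 15 passed the filter (medians 0.16 and 0.11), and 1 of them was called in both genotypes. This was Jun, the AP-1 subunit, with 28.0 to 99.0 FPKM in WT (log2 ratio 1.79) and 28.4 to 76.6 FPKM in GEF-H1-/- DCs (1.40). Mdm2, the ubiquitin ligase of p53, had 42.3 and 81.9 FPKM in untreated and AP3-treated WT (log2 ratio 0.94) and 43.8 and 56.3 in GEF-H1-/- DCs (0.35). Atf4, a stress-induced transcription factor, had a log2 ratio of 0.70 in WT and 0.31 in the knockout, and E2f1, a cell cycle factor, -0.60 and -0.26. The p53 gene itself, Trp53, was at 64.7 to 74.1 FPKM over the groups, with drug log2 ratios of -0.05 and -0.07.

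NF-kappaB genes tied to survival had the highest median of the lists in WT DCs (0.71), whereas in GEF-H1-/- DCs their median of 0.24 was below that of the pro-survival members (0.30). Of 8 genes 3 were called in WT DCs and 0 in the knockout. Rela, the p65 subunit, had 30.3 and 72.0 FPKM in untreated and AP3-treated WT (log2 ratio 1.22) and 31.2 and 50.0 in GEF-H1-/- DCs (0.66). Ier3 had 49.0 and 104 FPKM in WT (1.07) and 53.2 and 62.0 in GEF-H1-/- DCs (0.22), and Nfkb1, the p105 precursor gene, 111 and 228 in WT (1.03) and 95.3 and 125 in GEF-H1-/- DCs (0.38). Traf1, an adaptor of TNF receptors, had log2 ratios of 0.98 and 0.75. All 8 genes of the list had a lower drug effect in GEF-H1-/- than in WT DCs, against 51.6% of all genes. The list was chosen with earlier results of these data known. Whether the difference of these genes between genotypes exceeds the spread between libraries was not tested.

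**Figure D4:**
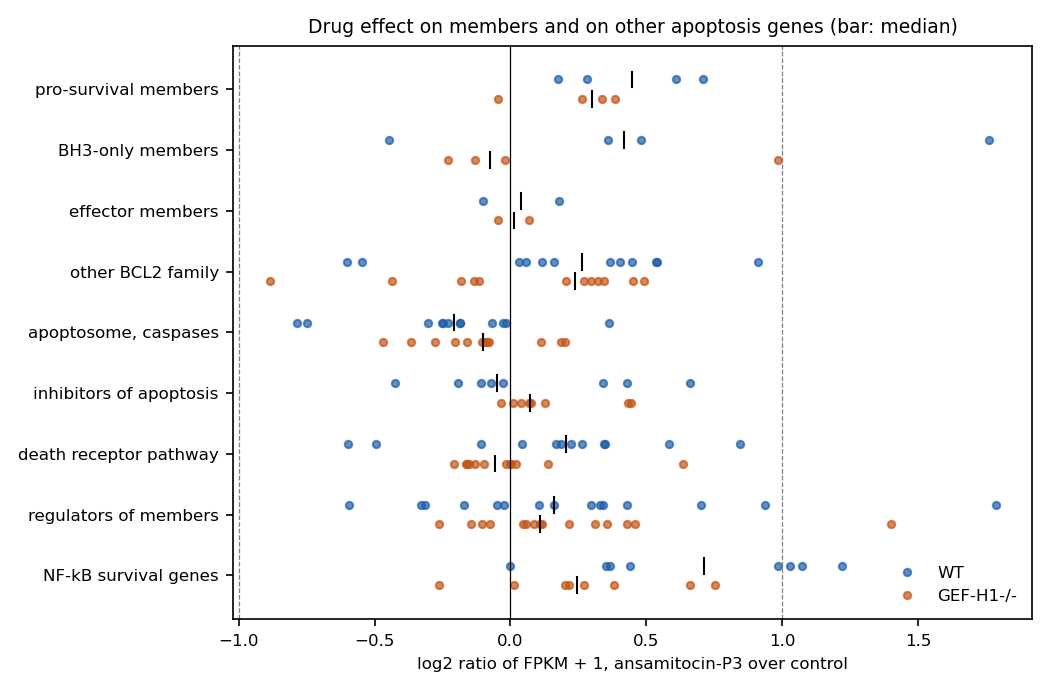
Log2 ratio of FPKM + 1 (x axis), ansamitocin-P3 over untreated, for each filtered gene of 9 lists (rows) in WT (blue) and GEF-H1-/- (orange) DCs; points are genes, vertical bars are list medians and dashed lines mark -1 and 1. The NF-kappaB survival genes have the medians farthest to the right in WT (0.71), and the apoptosome and caspase genes the only WT median under -0.10 (-0.21).

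The promoters of the members were read for 7 motifs on both strands. RefSeq start sites on GRCm38.p6 gave 14 windows, from 250 bases before to 50 after the start, for 9 of the 10 members. The member without a window was Pmaip1, so its promoter was not read and nothing is said here about its motifs. AP-1 was spelled TGANTCA, CRE TGACGTCA, GAS TTCNNNGAA and C/EBP-ATF TGATGNAA, while NF-kappaB, p53 and CArG elements were searched by their usual degenerate decamers. The AP-1 letters were in the promoter of 1 member, Bcl2a1b, and in 7.81% of 32851 promoters. The spelling used for AP-1 allowed any base at its centre, and the match in Bcl2a1b had an A there (TGAATCA). A stricter AP-1 spelling was not tested. The C/EBP-ATF letters were also in Bcl2a1b alone among the members (3.97% of promoters). An NF-kappaB match was found in 1 of 3 Bcl2l1 promoters and in 1 of 3 Bbc3 promoters (4.51% of promoters) and a p53 match in Bax (8.36%). No member window held a CRE (1.79%), GAS (8.3%) or CArG (1.63%) match. A match says only that the letters are there.

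The AP-1 match of Bcl2a1b began 164 bases before the start site and did not overlap the C/EBP-ATF match at 40 bases. The stretch around it is printed for Bcl2a1b and for the copies Bcl2a1a and Bcl2a1d because the same letters recur in all 3. Capitals mark the match, and the stretches are at chr9:89199059-89199165 (plus strand), chr9:88956750-88956856 (plus strand) and chr9:88731908-88732014 (minus strand) in turn.
Bcl2a1b: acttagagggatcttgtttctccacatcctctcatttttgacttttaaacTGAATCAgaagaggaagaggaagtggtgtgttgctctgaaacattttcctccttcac
Bcl2a1a: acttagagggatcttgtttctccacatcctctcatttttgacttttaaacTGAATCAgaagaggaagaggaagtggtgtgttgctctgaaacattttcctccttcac
Bcl2a1d: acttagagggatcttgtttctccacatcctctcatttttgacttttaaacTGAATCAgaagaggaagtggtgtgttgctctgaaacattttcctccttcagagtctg
Bcl2a1b and Bcl2a1a were identical over all 107 bases, and Bcl2a1d had the same letters for the first 67 bases. Beyond these, Bcl2a1d lacks a short repeat unit, and most of its remaining letters match the others in a shifted position. The 3 copies with the AP-1 match had drug log2 ratios of 0.61, 0.40 and 0.54 in WT DCs, which are not separate readings. Bcl2a1c, whose promoter lacked an AP-1 match, had 0.37 at its much lower level. The intervals of untreated and AP3-treated WT DCs overlapped for each of these genes, and whether the match plays a part was not tested.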

How the data were processed

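From BMDCs of both genotypes, with and without ansamitocin-P3, 8 libraries (2 per group) were sequenced, made as strand-specific mRNA libraries and read as paired ends. The authors computed the deposited FPKM with Cuffdiff (version 1.05 in the submitters' processing notes, genome mm10), which gave 1 value per gene and group and the bounds of a 95% interval. The aligner and the annotation are not given in the sources used here. Columns were matched to groups by name. The WT columns carry no genotype in their names and were assigned by elimination. Genes whose Cuffdiff status was low data (106) or too many data (1) were left out, and genes had to reach 1 FPKM in 1 group or more.

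From the table, log2 ratios of FPKM + 1 (pseudocount 1) were computed over all genes with Python 3.11.15, numpy 2.4.6 and pandas 2.3.3 and tested on simulated data. A pseudocount understates the ratios of low genes. No test was run, because the test planned for single libraries (limma) needs values that the table pools. A group difference was called past a log2 ratio of 1 or -1. The 7 alternatives were pseudocounts of 0.1 and 5 FPKM, no filter, a filter of 5 FPKM, groups rescaled to the median ratio, a 1.5-fold limit and intervals that did not overlap. Named genes were all 10 members, the 4 genes of each list with the largest drug log2 ratio in WT and any other called one, the 3 nearest genes to each member called in a drug comparison, and Arhgef2; 2 genes that this rule names are not reported here. Other genes (Hrk, Bok, Bcl2l10, Bcl2l15, Trp53, and the Bcl2a1 copies and overlapping models) were named after their values were seen. The members and the gene lists were chosen with earlier results of these data known. Shared stretches, coding identity and overlaps were read from GENCODE M21 on GRCm38, and promoters from RefSeq.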

Additional observations from a re-analysis of the deposited data

Results flagged for a closer look

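Mcl1, Bcl2l11 and Bbc3 stood out because the drug log2 ratio of FPKM + 1 was positive in WT DCs and negative in the knockout. The difference of the drug effects, GEF-H1-/- minus WT, was -0.33 for Mcl1, -0.71 for Bcl2l11 and -0.49 for Bbc3. The differences were not tested, since each group has 1 pooled value, and opposite signs were found for 23.9% of the 11397 genes.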

How the results depend on the processing

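The log2 ratio of each of the 10 members in each of the 5 comparisons (50 values) stayed within its span under both other pseudocounts and the rescaling. Signs were also kept, but a pseudocount cannot reverse the sign of a ratio of 2 groups. The rescaling factors were 0.995 to 1.01, so they could move the ratios only a little. Both other filters left these values as they were by construction, since a filter does not alter a gene's own ratio. The counts of members past a limit depended on the limit. For the drug in WT DCs the count of 1 became 2 by intervals apart and 3 at 1.5-fold. In GEF-H1-/- DCs the count of 0 became 1 (Pmaip1) with a pseudocount of 0.1 FPKM, by intervals apart and at 1.5-fold, so its side of the limit depends on the pseudocount. Between the genotypes in treated cells the count of 1 became 3 by intervals apart and 3 at 1.5-fold. For the difference of drug effects the count of 0 became 2 at 1.5-fold. With the other Bcl2a1 copies added, the pro-survival sum was 595.51 FPKM in untreated WT, 833.22 in AP3-treated WT, 519.15 in untreated GEF-H1-/- and 587.08 in AP3-treated GEF-H1-/- DCs, by construction higher, while the WT drug ratio was 1.40 in both versions. No paired analysis was possible because the table holds 1 pooled value per group, and for the same reason no library could be left out in turn. Precision is limited by the Cuffdiff intervals, as the depth reached is unknown.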

Other observations

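The pooled FPKM did not sit at the middle of its Cuffdiff interval for every member. For Bcl2, Bid and Bak1 between 49.9% and 50.1% of the interval lay below the FPKM in the 4 groups, whereas for Bcl2a1b it was 75.0% to 78.9%, for Mcl1 62.8% to 66.1%, for Bax 58.0% to 65.6% and for Pmaip1 54.6% to 60.1%. All 40 member values lay inside their own intervals. The reading of Bcl2a1b as overlapping between control and AP3-treated WT DCs (149 to 238 and 231 to 371 FPKM) rests on such an uneven interval.

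Bcl2l14 is a family gene of uncertain role in apoptosis that was picked out after its values were seen. Of the 12 other filtered BCL2 family genes, it alone had intervals apart and higher in untreated GEF-H1-/- DCs, against 2.86% of all genes. It had 2.41 FPKM in untreated WT, 2.69 in AP3-treated WT, 4.33 in untreated GEF-H1-/- and 6.29 in AP3-treated GEF-H1-/- DCs, with a log2 ratio between genotypes of 0.65 in untreated and 0.98 in treated cells. Macrophage, basophil and mast cell markers were also higher in GEF-H1-/- DCs, except Mertk in untreated cells (log2 ratio -0.22). The part of these markers in the Bcl2l14 values was not tested.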
